A study of Mus musculus with 8 samples.

Results

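Cdkn1a, Cdkn1b, Cdkn1c, Cdkn2c, Plk2, Plk3, Gadd45a, Gadd45b, Gadd45g and Mdm2 are genes of growth arrest that respond to stress or belong to the p53 pathway. Their levels were followed in brown adipose tissue, called brown fat here, and in the quadriceps, in C57BL/6J mice at room temperature or after 4 h at 4 °C. The 10 genes were taken by symbol, with every array probe annotated to them, from the 15967 named genes on the array. They were chosen by their known roles with the response of brown fat to cold already in view, so the brown fat values are given as a description without a test. In all, 8 of the 10 were above background and entered the fit, which covered 9963 genes.

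Expression was measured on 8 Illumina bead arrays, 2 for each pairing of tissue and temperature. All mice were of 1 strain, ate laboratory chow and lived in a cycle of light and darkness, with no genetic change recorded in the labels. The cold groups came from mice that had food overnight and were then kept in the cold with neither food nor bedding. The labels do not say whether the mice at room temperature also went without food, and they give neither age nor sex. It is also not stated that the 2 arrays of a group came from different mice, so the errors and p-values below measure how far these samples differ and can be partly technical.

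A cell divides when cyclin-dependent kinases (Cdks) carry it through the cell cycle, and Cdk inhibitors hold it back. Cdkn1a, Cdkn1b and Cdkn1c form the Cip/Kip group, which binds complexes of cyclins with Cdks, and Cdkn2c belongs to the Ink4 group, which binds Cdk4 and Cdk6. Cdkn1a is a classic target of the transcription factor p53, and Mdm2, another target, is the ubiquitin ligase that marks p53 for degradation. Plk2 and Plk3 are Polo-like kinases induced by stress, and the Gadd45 proteins bind stress-activated MAP kinase kinase kinases and Cdk complexes. Mature fat cells and muscle fibres do not divide, and in such tissues several of these genes are also known to answer hormones, fasting and cAMP.

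The upstream sequences of Cdkn1a, Plk3 and Gadd45g are shown because these genes read higher on all cold arrays of both tissues than on the room temperature arrays of the same tissue. This rule served only to pick the sequences printed. How many of all genes meet it was not counted, and in muscle only Cdkn1a of these genes passed the test. Each is the 250 bases that end at the base before an annotated start, 5′ to 3′ on the gene's own strand, from RefSeq (mouse assembly GRCm38.p6). For Cdkn1a, whose annotated starts differ, the window further upstream is printed. Capitals mark the matches to the motifs searched for, which are decamers of the p53 motif in Cdkn1a, TGACG in Plk3 and CACGTG in Gadd45g.
Cdkn1a, chr17:29090729-29090978, + strand: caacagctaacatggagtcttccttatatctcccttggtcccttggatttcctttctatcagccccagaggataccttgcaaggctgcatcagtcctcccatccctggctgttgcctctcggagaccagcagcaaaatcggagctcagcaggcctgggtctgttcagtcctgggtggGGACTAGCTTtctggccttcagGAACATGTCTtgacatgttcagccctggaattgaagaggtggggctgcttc
Plk3, chr4:117133964-117134213, - strand: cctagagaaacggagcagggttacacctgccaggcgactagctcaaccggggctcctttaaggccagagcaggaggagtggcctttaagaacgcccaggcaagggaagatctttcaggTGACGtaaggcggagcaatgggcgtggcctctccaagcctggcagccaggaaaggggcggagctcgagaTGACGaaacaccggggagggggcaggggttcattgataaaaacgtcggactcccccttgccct
Gadd45g, chr13:51846425-51846674, + strand: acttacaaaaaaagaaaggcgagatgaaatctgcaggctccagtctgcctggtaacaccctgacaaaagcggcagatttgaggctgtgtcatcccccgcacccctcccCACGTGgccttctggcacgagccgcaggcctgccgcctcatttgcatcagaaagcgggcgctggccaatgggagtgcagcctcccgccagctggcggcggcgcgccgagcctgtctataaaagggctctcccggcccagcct

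The RefSeq table held 11 promoter windows of 300 bases for 9 of the 10 genes (250 bases before the start and 50 after it), and Cdkn1a and Cdkn2c each had more than 1. Motifs were searched on both strands. The printed window of Cdkn1a held matches to the p53 decamer, the unit that is paired in a full p53 site, which begin 73 and 51 bases before the start, and the window of Plk3 held TGACG, the core of the cAMP response element, 132 and 63 bases before it. The Cdkn1a window that is not printed held no match to any of the motifs searched for. It belongs to a start further downstream, with its 250 bases before that start at chr17:29093519-29093768. The distances given for Cdkn1a count from the start of the printed window only, and which start these tissues use was not tested. Gadd45g had CACGTG, an E-box, 142 bases before its start. Of the 11 windows, 3 held a p53 decamer (Cdkn1a, Gadd45a and Mdm2) beside 8.36% of the 32851 windows in the table. TGACG was found in 4 of the 11 beside 20.8% of all windows. The full cAMP response element TGACGTCA, which contains TGACG, was found in 1 (Plk2) beside 1.79%. CACGTG was found in 3 of the 11 beside 7.15% of all windows, GTAAACA, a FoxO site, in 1 (Mdm2) beside 3.65%, and TGTTCT, a part of the glucocorticoid response element, in 1 (Cdkn2c) beside 19.0%. GAANNTTC, the heat shock element, was in 0 of the 11 beside 7.86%, which says only that these letters are not in these windows. A match is a description of the letters and not a site shown to be bound.

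Each array had 10468 to 11280 of its 24607 probes above background, and replicates correlated at 0.977 to 0.9959 over the genes tested. An array of each cold group stood apart. Brown fat replicate 1 in the cold lacked muscle transcripts that the other 3 brown fat arrays carried. Acta1, the actin of skeletal muscle, read 13.85 and 14.24 in log2 units at room temperature, then 6.55 and 14.17 in the cold. The summed signal of the 8 muscle fibre markers on the array was 65878.7 and 68259.5 at room temperature, 823.3 on that array and 76496.1 on the other. On muscle, the sums ran from 197139 to 209868.1. The other case was muscle replicate 2 in the cold, which carried brown fat transcripts. Ucp1, which uncouples respiration in brown fat, stood at 6.18 and 5.93 on the room temperature muscle arrays and at 9.16 and 14.45 on the cold ones, beside 14.41 to 14.68 on brown fat arrays. The summed signal of the 5 general fat cell markers followed the same course in muscle, at 1675 and 2392.3, then 5222.1 and 21760.1. The labels number the cold muscle arrays inconsistently, since the titles and the descriptions give opposite numbers, and the titles are followed here. The cold values of the 8 genes in the fit are therefore also given without brown fat replicate 1 and muscle replicate 2 of the cold, called the doubted arrays below. For the other genes named, it is said whether a call in the cold was kept without them.

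Brown fat markers were present in brown fat and muscle markers in muscle, apart from the foreign transcripts just given. Of the 6 brown fat markers, however, Cox8b, Cox7a1 and Fabp3 were also bright in room temperature muscle. They read 14.51 to 14.76 there and 14.56 to 14.87 in brown fat, so they do not separate the tissues. Ucp1, Cidea and Elovl3 read 5.18 to 6.18 in room temperature muscle and 9.30 to 14.84 in brown fat, which fits the tissue labels. Of the 3 satellite cell markers, the muscle cadherin gene Cdh15 was above background on all 4 muscle arrays (8.55 to 9.07) and on no brown fat array, while Pax7 and Myf5 were not above background on any of the 8 arrays. Of the 3 T cell markers on the array, Cd3d was above background on both room temperature brown fat arrays, Cd3e on 1 of them and Cd4 on none of the 8.

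**Figure D1:**
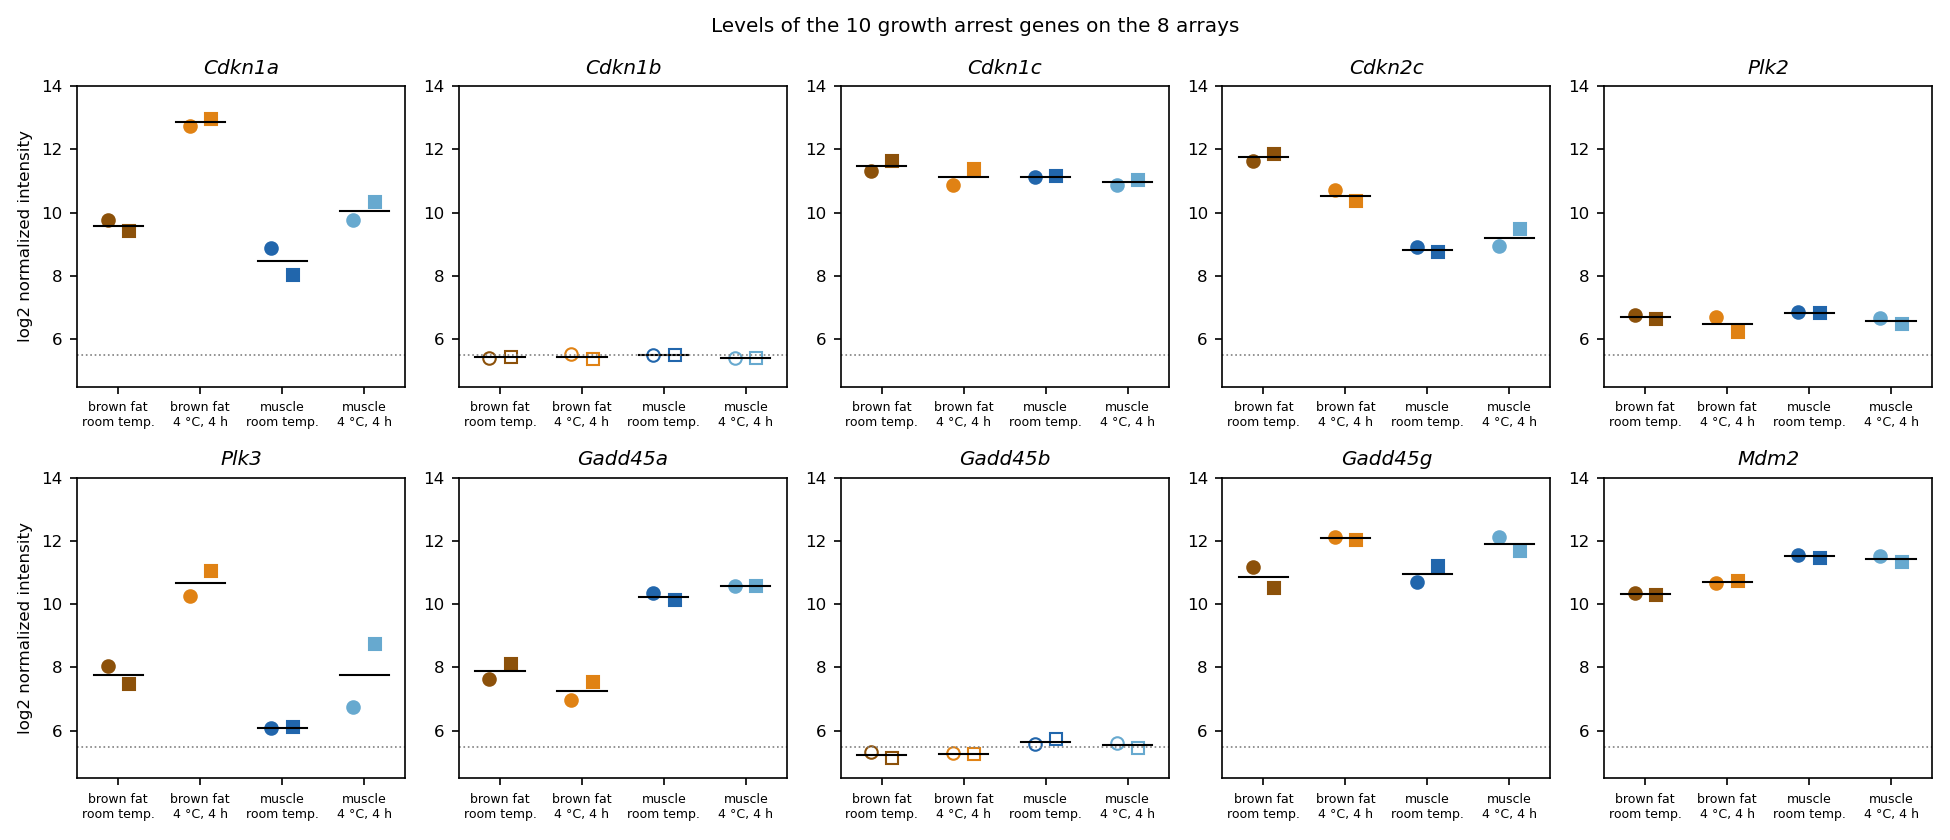
Level of each of the 10 genes on the 8 arrays, as log2 normalized intensity on the vertical axis, with a panel for each gene and a column for each group. Circles are replicate 1, squares replicate 2, bars the mean of the 2 arrays, open symbols readings not above background, and the dotted line the lowest signal of a detected probe (5.50). For genes with several probes the brightest is drawn. Cdkn1a in cold brown fat, at 12.74 and 12.95, lies above all its other points, and Cdkn1b and Gadd45b lie at background throughout.

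In brown fat, Cdkn1a, Plk3 and Gadd45g read higher in the cold and Cdkn2c read lower. Since cell numbers were not measured, a change in the share of a cell type and a change in RNA per cell cannot be told apart in these tissue extracts. Cdkn1a, the Cip/Kip inhibitor, read 9.77 and 9.41 at room temperature and 12.74 and 12.95 in the cold (log2 normalized intensity). The cold arrays lay far above the room temperature arrays with no overlap, and the difference was 3.26 (SE 0.31), or 9.55-fold. In raw signal, Cdkn1a went from 3.16% and 2.19% of the brightest probe of its array to 18.1% and 26.6%, so its probe was not near saturation. Plk3 read 8.04 and 7.47 at room temperature and 10.26 and 11.06 in the cold, again without overlap, a difference of 2.90 (SE 0.60) or 7.48-fold. Gadd45g, of the Gadd45 family, read 11.16 and 10.52, then 12.13 and 12.02, a difference of 1.23 (SE 0.26) or 2.35-fold.

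Cdkn2c, the Ink4 inhibitor, went the other way in brown fat, from 11.63 and 11.85 to 10.70 and 10.36. Both cold arrays were below both room temperature arrays, and the log2 difference was -1.21 (SE 0.20), which is 2.32-fold lower. Gadd45a read 7.65 and 8.11 at room temperature and 6.98 and 7.55 in the cold (-0.62, SE 0.22), groups that did not overlap but lay close together. Mdm2 read 10.34 and 10.29, then 10.67 and 10.72, a small difference of 0.38 (SE 0.11) without overlap. Cdkn1c read 11.31 and 11.62, then 10.89 and 11.37, and Plk2 read 6.75 and 6.63, then 6.71 and 6.24. For Cdkn1c (-0.34, SE 0.18) and Plk2 (-0.22, SE 0.16) the groups overlapped.

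By the rule of an adjusted p under 0.05, which called 8.38% of all 9963 genes higher and 8.24% lower in cold brown fat, 3 of the 8 genes (Cdkn1a, Plk3, Gadd45g) were called higher and 1 (Cdkn2c) lower. Nothing is read from that count, because this contrast was in view when the genes were chosen. The median log2 difference of the 8 was 0.08 beside 0.02 for all genes. Without the doubted arrays the differences in brown fat were 3.36 for Cdkn1a, 3.29 for Plk3, 1.17 for Gadd45g and -1.37 for Cdkn2c, and Gadd45g was no longer called, so that 3 of the 8 were. Gadd45a, not called with all arrays either, shrank to -0.34, and Cdkn1c, Plk2 and Mdm2 gave -0.09, -0.45 and 0.41. The brown fat array that lacked muscle transcripts gave the lowest Gadd45a reading of the 8 arrays. Other cell type markers also differed between the groups. The summed signal of 5 endothelial markers was 7412.9 and 5829.4 at room temperature and 4303.2 and 4347.5 in the cold. That of 4 macrophage markers was 2757 and 2613.3, then 2386.8 and 1626.8. That of 5 general fat cell markers was 45667.5 and 34213.3, then 29595.2 and 32057.1, while their median log2 level was 11.45 and 11.27, then 11.65 and 11.32. The part of these shifts in the values of the 8 genes was not tested.

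**Figure D2:**
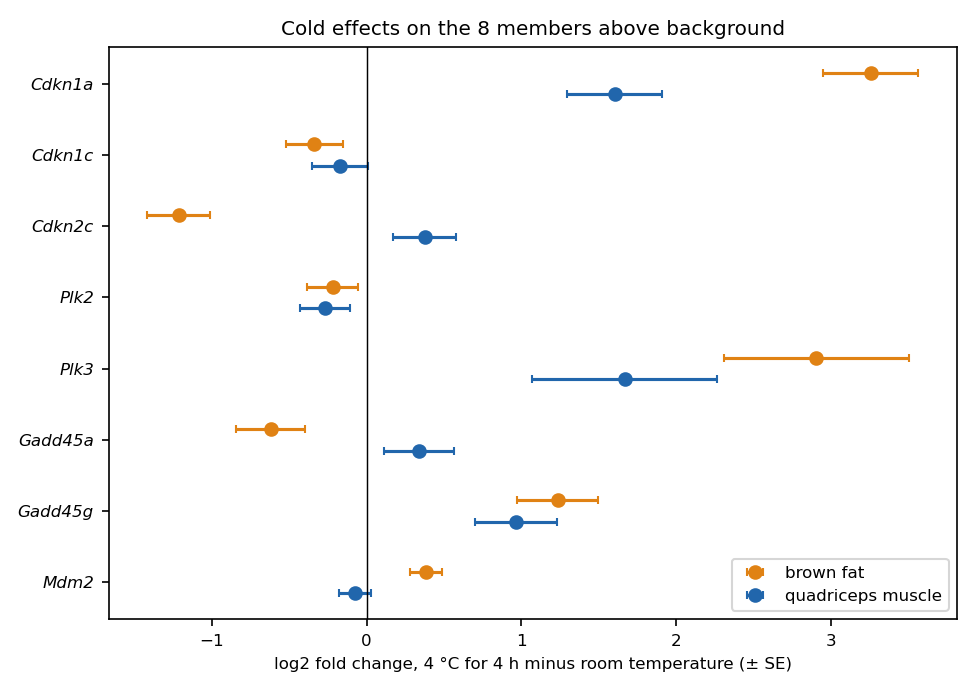
Cold effect on the 8 genes above background in brown fat (orange) and quadriceps muscle (blue), as the log2 difference between 4 °C for 4 h and room temperature on the horizontal axis, with points at the estimate and bars of 1 SE. Cdkn1a lies at 3.26 and 1.60, Plk3 at 2.90 and 1.67 and Gadd45g at 1.23 and 0.97, while Cdkn2c lies at -1.21 in brown fat and 0.37 in muscle.

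In quadriceps muscle, which did not serve to choose the genes, Cdkn1a rose in the cold and the other 7 genes did not pass the test. Earlier results of these data were known when genes and tests were chosen, so the test is not fully independent of them. Cdkn1a read 8.88 and 8.03 at room temperature and 9.78 and 10.34 in the cold, so every cold array was above every room temperature array. The rise was 3.03-fold (log2 fold change 1.60, SE 0.31, limma adjusted p = 0.0385). Among all genes tested, 1.83% were called higher and 2.38% lower in cold muscle, beside 1 of the 8 here called higher and 0 lower. The median over the 8 was 0.36 beside -0.02 for all genes. The summed signal of the 4 macrophage markers was 902.9 and 910 on the room temperature muscle arrays and 1222.6 and 1172.3 on the cold ones, and its part in these values was not tested.

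The rise of Cdkn1a in muscle lay close to the threshold. Without the doubted arrays it was 1.30 (limma adjusted p = 0.106), without muscle replicate 2 of the room temperature group 1.17 (adjusted p = 0.187), and without muscle replicate 2 of the cold group alone 1.31 (adjusted p = 0.131). On that last array Ucp1 read 14.45, as in brown fat, and the part of brown fat RNA in the Cdkn1a reading of 10.34 was not tested. On muscle replicate 1 in the cold, where Ucp1 was 9.16, Cdkn1a read 9.78, above both room temperature arrays. Leaving out a brown fat array, which enters through scaling, the shared spread and the set of genes tested, also ended the call (adjusted p between 0.0548 and 0.0718 over the 4 arrays).

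Plk3 in muscle read 6.08 and 6.11 at room temperature, little above background (detection p 0.0182 and 0.0207), then 6.77 and 8.76 in the cold. Its 2 cold arrays were far apart and the difference of 1.67 (SE 0.60) did not pass (limma adjusted p = 0.180). The array with brown fat transcripts gave the higher reading. Without the doubted arrays the difference was 0.68 (adjusted p = 0.199), and without muscle replicate 1 of the cold group it was 2.64 (adjusted p = 0.00784), so 1 array sets its size.

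Gadd45g read 10.69 and 11.19 in muscle at room temperature and 12.12 and 11.69 in the cold. The groups did not overlap, but the difference of 0.97 (SE 0.26) did not pass (limma adjusted p = 0.0936). Its reading was higher on the cold array with the lower Ucp1, and the difference without the doubted arrays was 1.17 (adjusted p = 0.105). Gadd45a read 10.36 and 10.13, then 10.57 and 10.59 (0.34, SE 0.22, adjusted p = 0.446), with 0.33 without the doubted arrays.

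Of the other Cdk inhibitors in muscle, Cdkn2c read 8.91 and 8.76, then 8.94 and 9.48 (0.37, SE 0.20, limma adjusted p = 0.353). The higher cold value came from the array with brown fat transcripts, and without the doubted arrays the difference was 0.11. Cdkn1c read 11.11 and 11.14, then 10.89 and 11.03 (-0.17, SE 0.18, adjusted p = 0.659). Plk2 read 6.86 and 6.84, then 6.66 and 6.49 (-0.27, SE 0.16, adjusted p = 0.405). Mdm2 read 11.55 and 11.47, then 11.53 and 11.34 (-0.07, SE 0.11, adjusted p = 0.756). The 95% intervals of these differences ran from -0.11 to 0.85 for Cdkn2c, from -0.60 to 0.26 for Cdkn1c, from -0.65 to 0.12 for Plk2 and from -0.32 to 0.18 for Mdm2. The last 3 gave -0.24, -0.18 and 0.02 without the doubted arrays.

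**Figure D3:**
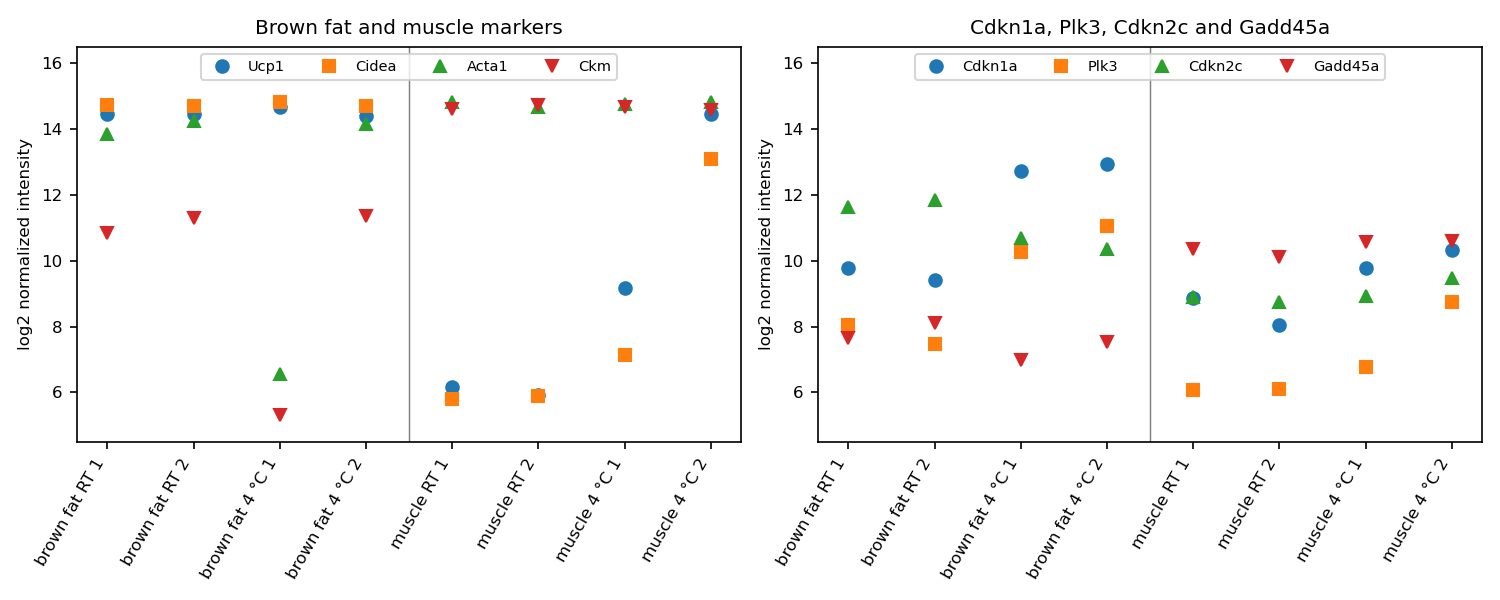
Markers of brown fat (Ucp1, Cidea) and of skeletal muscle (Acta1, Ckm) on the left, and Cdkn1a, Plk3, Cdkn2c and Gadd45a on the right, on each of the 8 arrays in the same order. The vertical axis is log2 normalized intensity, and RT is room temperature. Acta1 falls to 6.55 on brown fat replicate 1 in the cold, and Ucp1 reaches 14.45 on muscle replicate 2 in the cold, where Plk3 reads 8.76 against 6.08 to 6.77 on the other muscle arrays.

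The order of the group means of Cdkn1a was 8.46 ± 0.60 in muscle at room temperature, 9.59 ± 0.26 in brown fat at room temperature, 10.06 ± 0.40 in muscle in the cold and 12.85 ± 0.15 in brown fat in the cold (log2, SD, n = 2). The means of brown fat at room temperature and cold muscle were closer than the sum of their SDs, and their nearest arrays read 9.77 and 9.78. Plk3 followed as 6.09 ± 0.02, 7.75 ± 0.40, 7.76 ± 1.41 and 10.66 ± 0.57 in the same order of groups, and the 2 in the middle did not differ beyond their spread.

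At room temperature the tissues differed in 5 of the 8 genes. Cdkn2c, Plk3 and Cdkn1a were higher in brown fat, Gadd45a and Mdm2 were higher in muscle, and Cdkn1c, Plk2 and Gadd45g did not pass the test. This comparison shares its brown fat arrays with the cold comparison that was in view when the genes were chosen. Among all genes tested, 32.8% were called higher in brown fat and 33.4% lower, so 3 higher and 2 lower of 8 is near the background. The median was 0.12 over the 8 and -0.01 over all genes.

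Cdkn2c read 11.63 and 11.85 in brown fat and 8.91 and 8.76 in muscle, a 7.51-fold difference (log2 2.91, SE 0.20, limma adjusted p = 2.93e-05). This gap is wider than the decrease of Cdkn2c in cold brown fat, where it still read above every muscle array. Gadd45a read 7.65 and 8.11 in brown fat against 10.36 and 10.13 in muscle, which made it 5.13-fold higher in muscle (log2 -2.36, SE 0.22, adjusted p = 9.55e-05). Mdm2 read 10.34 and 10.29 against 11.55 and 11.47, or 2.30-fold higher in muscle (log2 -1.20, SE 0.11, adjusted p = 7.26e-05). Both room temperature brown fat arrays carried muscle transcripts, as given above, and their part in these values was not tested. On the brown fat array without them, which is of the cold group, Gadd45a read 6.98 and Mdm2 10.67. The other cold brown fat array, which carried muscle transcripts, read 7.55 and 10.72.

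Cdkn1a was 2.19-fold higher on the brown fat side (log2 1.13, SE 0.31, limma adjusted p = 0.0138), from arrays of 9.77 and 9.41 against 8.88 and 8.03. Plk3 was 3.15-fold higher (log2 1.66, SE 0.60, limma adjusted p = 0.0420), against muscle readings little above background (detection p 0.0182 and 0.0207). These were the calls nearest to the threshold, and each was lost without brown fat replicate 1 (adjusted p = 0.0825 and 0.176) and without muscle replicate 2 (adjusted p = 0.0758 and 0.131), both of the room temperature groups. Cdkn1c (0.34, SE 0.18, adjusted p = 0.137) read higher on both brown fat arrays without passing, and it lay at -0.13 with median scaling. Plk2 (-0.15, SE 0.16, adjusted p = 0.437) and Gadd45g (-0.10, SE 0.26, adjusted p = 0.763) differed by less than their errors.

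**Figure D4:**
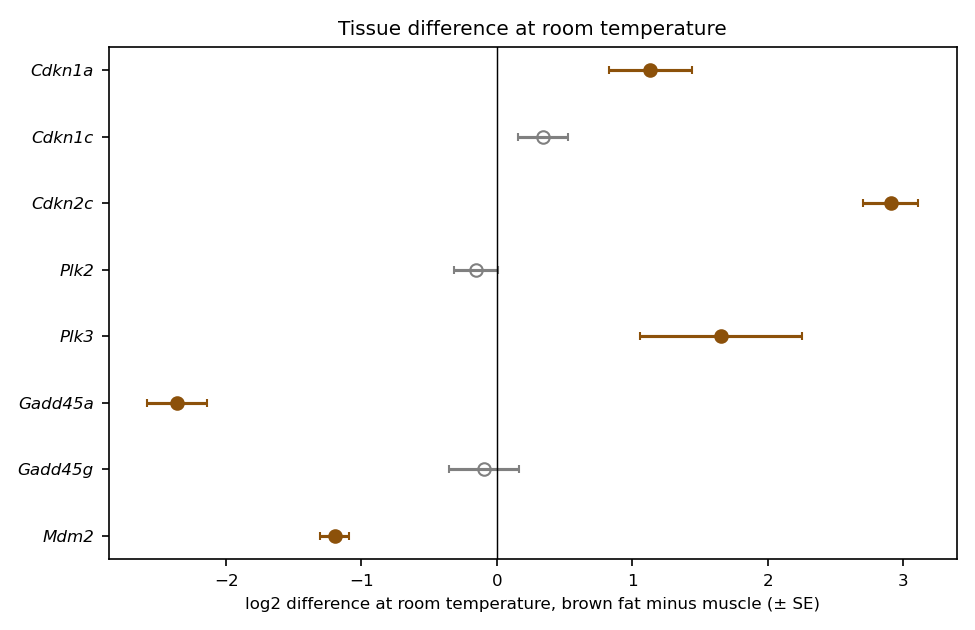
Tissue difference at room temperature for the 8 genes above background, as the log2 difference of brown fat minus muscle on the horizontal axis, with bars of 1 SE. Filled points passed the adjusted threshold and open points did not. Cdkn2c lies at 2.91 on the brown fat side and Gadd45a at -2.36 on the muscle side.

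In the cold the tissue differences were 2.79 (SE 0.31) for Cdkn1a, 2.89 (SE 0.60) for Plk3, 1.32 (SE 0.20) for Cdkn2c, -3.32 (SE 0.22) for Gadd45a and -0.74 (SE 0.11) for Mdm2. They use the cold brown fat arrays and are given as values without a test. The same holds for the difference between the cold effects of the tissues, brown fat minus muscle, which was 1.66 (SE 0.43) for Cdkn1a, 1.24 (SE 0.84) for Plk3 and -1.59 (SE 0.29) for Cdkn2c. Without the doubted arrays, which leaves 1 array in each cold group, the tissue differences in the cold were 3.18 for Cdkn1a, 4.27 for Plk3, 1.41 for Cdkn2c, -3.02 for Gadd45a and -0.80 for Mdm2. The differences between the cold effects were then 2.05 for Cdkn1a, 2.61 for Plk3 and -1.48 for Cdkn2c, so Plk3 moved furthest of the 3.

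The array carried 14 probes for the 10 genes, and 4 genes had more than 1. Both probes of Cdkn1a read higher in cold brown fat. The dimmer one read 9.06 and 8.26, then 12.12 and 12.36, a difference of 3.58 (SE 0.35). In muscle it read 8.60 and 7.79, then 9.25 and 9.76, a difference of 1.31 (SE 0.35) that did not pass over all tested probes (limma adjusted p = 0.0927). The tissue difference of Cdkn1a at room temperature depended on the probe, since the dimmer probe gave 0.47 (SE 0.35) with overlapping arrays. The dimmer probe of Cdkn2c gave the same difference of -1.21 (SE 0.18) in cold brown fat and 2.08 (SE 0.18, adjusted p = 6.20e-05) between the tissues at room temperature. In cold muscle it gave -0.06 (SE 0.18), so the 2 Cdkn2c probes lay on either side of 0 there. Without the doubted arrays, a setting added for the probes after their values were seen, the dimmer Cdkn1a probe gave 3.69 in brown fat and 1.05 in muscle (adjusted p = 0.262), and the dimmer Cdkn2c probe gave -1.26 and -0.23.

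**Figure D5:**
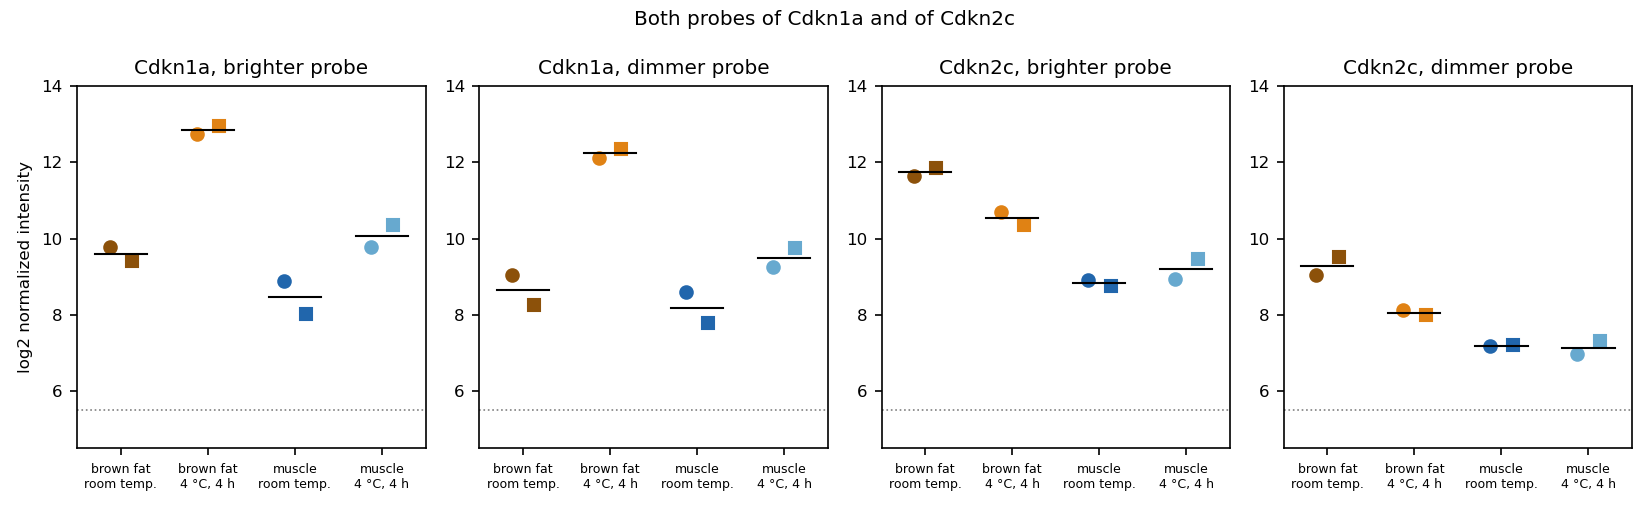
Both tested probes of Cdkn1a and of Cdkn2c in the 4 groups, as log2 normalized intensity, with circles for replicate 1, squares for replicate 2, bars for group means and a dotted line at the lowest signal of a detected probe. The dimmer Cdkn1a probe reads 12.12 and 12.36 in cold brown fat, above all its other points, as the brighter probe does.

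Cdkn1b and Gadd45b were not measured well enough to compare. The 2 probes of Cdkn1b read between 5.13 and 5.54 on all 8 arrays and the probe of Gadd45b between 5.14 and 5.73, with none of these readings above background. A second probe of Mdm2 was also at background, at 5.37 to 5.67. No statement on the direction of Cdkn1b or Gadd45b can be made from this array.

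Related genes were counted from lists that were drawn up with earlier results of these data known. The gene for p53 itself, Trp53, was not analysed here. Of 10 tested regulators and relatives of p53, 2 rose and 0 fell in cold muscle, beside 1.83% and 2.38% of all genes. They were Hipk2, a kinase that phosphorylates p53 (1.04, SE 0.19, limma adjusted p = 0.0334), and Trp63, a relative of p53 (0.96, SE 0.18, adjusted p = 0.0365). Both calls were lost without the doubted arrays, at 0.85 (adjusted p = 0.0618) and 0.85 (adjusted p = 0.114). In cold brown fat 0 of the 10 rose and 1 fell, beside 8.38% and 8.24% of all genes called there. The gene that fell was the checkpoint kinase Chek2, which was not above background in the cold. Chek2 was at least 1.58-fold lower (limma adjusted p = 0.00931), a call kept without the doubted arrays.

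Of 16 other tested p53 target genes, 1 rose and 2 fell in cold brown fat, near the 8.38% and 8.24% of all genes called there. The cyclin Ccng2 read 8.15 and 8.11, then 9.29 and 9.22, and rose by 1.12 on the log2 scale (SE 0.16, limma adjusted p = 0.00654). Phlda3, which restrains Akt signalling, fell by 0.79 (SE 0.19, adjusted p = 0.0310), and the death receptor Fas fell by 0.62 (SE 0.17, adjusted p = 0.0463). Without the doubted arrays Ccng2 kept its call (1.08) and the other 2 did not (-0.65 and -0.72). In cold muscle 0 of the 16 passed, beside 1.83% of all genes called higher and 2.38% lower. The largest differences were 0.92 for Dusp4 (SE 0.37, limma adjusted p = 0.227) and 0.60 for Phlda3 (SE 0.19, adjusted p = 0.135). Dusp4 read 5.80 and 5.81, then 6.06 and 7.37, with the high value on the array that carried brown fat transcripts. Dusp4 gave 0.27 and Phlda3 0.80 without the doubted arrays, and without muscle replicate 1 of the cold group Dusp4 gave 1.54 (adjusted p = 0.00333). Between the tissues at room temperature 5 were higher and 5 lower in brown fat, beside 32.8% and 33.4% of all genes. The phosphatase Dusp4 (3.87, SE 0.37) led on one side and Tigar (-3.26, SE 0.11) on the other. Tigar in brown fat, at 5.67 and 5.46, was above background on 1 of these arrays. Dusp4 in muscle, at 5.80 and 5.81, was near the lowest detected signals there (5.70 and 5.73). The sizes of these differences are therefore uncertain at the dim end.

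Both other Cdk inhibitors that could be tested were of the Ink4 group, and both fell in cold brown fat, beside 8.24% of all genes. Cdkn2c also read lower there, and the Ink4 gene Cdkn2a was on the array but could not be tested. Cdkn2b read 7.43 and 7.55, then 6.54 and 6.51 (-0.97, SE 0.13, limma adjusted p = 0.00586), and kept its call without the doubted arrays (-0.98). Cdkn2d read 7.32 and 7.47, then 6.48 and 6.91 (-0.70, SE 0.16, adjusted p = 0.0289). That call was lost in 8 of 19 alternatives, among them without the doubted arrays (-0.48). In cold muscle Cdkn2b and Cdkn2d gave -0.02 (SE 0.13, adjusted p = 0.968) and -0.26 (SE 0.16, adjusted p = 0.415). At room temperature both were higher in muscle (-0.59 and -0.95), beside 33.4% of all genes, the opposite of Cdkn2c. Of the other Polo-like kinases only Plk5 could be tested, and it passed in neither cold comparison.

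Among 11 cyclins, Cdks and pocket proteins, 1 rose and 3 fell in cold brown fat, beside 8.38% and 8.24% of all genes. The G1 cyclins parted there. Ccnd1 read 9.45 and 9.53, then 10.35 and 10.18 (0.77, SE 0.10, limma adjusted p = 0.00519), while Ccnd2 read 9.88 and 9.24, then 8.09 and 8.16 (-1.43, SE 0.30, adjusted p = 0.0209). Both calls were kept without the doubted arrays (0.69 and -1.39). Rbl1, a pocket protein that was not above background in the cold, was at least 1.38-fold lower (adjusted p = 0.0300), and its call was lost without them (adjusted p = 0.101). In cold muscle Ccnd1 was the 1 gene of the 11 that passed, and it fell by 0.61 (SE 0.10, adjusted p = 0.0304), with -0.64 and an adjusted p of 0.0604 without the doubted arrays. Among all genes, 2.38% were called lower in cold muscle. Of 6 proliferation markers tested, 1 fell in cold brown fat and 0 passed in cold muscle. The gene that fell, Mcm2, was not above background in the cold and at least 1.22-fold lower (adjusted p = 0.0488), a call lost without the doubted arrays (adjusted p = 0.159) and in 15 of 18 alternatives.

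Of 9 tested kinases of the stress pathway that Gadd45 proteins bind, 0 passed in cold brown fat. Among all genes, 8.38% were called higher and 8.24% lower there. In cold muscle, where 2.38% of all genes were called lower, only Mapk11, a p38 kinase, fell (-0.95, SE 0.10, limma adjusted p = 0.00587). It kept the call without the doubted arrays (-0.99). At room temperature 7 of the 9 were higher in muscle, beside 33.4% of all genes, led by Mapk12 (-3.40, SE 0.12) and Map2k6 (-2.46, SE 0.27). Map2k6 was above background on 1 of the brown fat arrays compared, with readings of 5.56 and 6.25. Gadd45a was higher in muscle as well.

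In the Btg/Tob family, which slows proliferation, 1 of 3 tested genes rose in cold muscle, beside 1.83% of all genes. Tob2 read 9.55 and 9.31 at room temperature and 10.60 and 10.99 in the cold (1.36, SE 0.16, limma adjusted p = 0.00982), and it kept the call without the doubted arrays (1.17). Foxo1, a transcription factor of the fasting response, rose in both tissues. Its mean went from 7.91 to 10.34 in muscle (2.43, SE 0.12, adjusted p = 0.00121), and 9.69 and 9.86, then 10.26 and 10.29 in brown fat (0.50, SE 0.12, adjusted p = 0.0332). The brown fat call was lost without the doubted arrays (0.51, adjusted p = 0.0813), and the muscle call was kept (2.50).

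Between the tissues at room temperature, 1 of the 10 p53 regulators was higher and 3 were lower in brown fat. Among the lower were Trp63 (-1.41, SE 0.18) and the ubiquitin ligases Cop1 (-1.34, SE 0.12) and Rchy1 (-1.16, SE 0.24). Trp63 was above background on 1 of the brown fat arrays compared, with readings of 5.85 and 5.44. Of the 11 cyclins, Cdks and pocket proteins 5 were higher and 1 was lower, with Cdk2 (1.34, SE 0.12), Ccnd3 (1.13, SE 0.19) and Ccnd1 (0.94, SE 0.10) on the brown fat side. Of the 6 proliferation markers 1 was higher, the thymidylate synthase gene Tyms, and 3 were lower, among them the mitotic kinase Aurka, which was not above background in brown fat and at least 9.63-fold lower. The Tyms probe used was not above background on either muscle array and gave at least 3.46-fold more in brown fat, while another probe of the gene was above background on 1 of these muscle arrays. Btg1 (2.35, SE 0.27), Tob2 (0.99, SE 0.16) and Foxo1 (1.87, SE 0.12) were higher in brown fat, and Plk5, at background there, was at least 1.20-fold lower. These shares lie beside the 32.8% and 33.4% of all genes called in each direction.

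The named genes whose levels followed Cdkn1a most closely over the 8 arrays were Ctr9, a subunit of the Paf1 elongation complex (Pearson's r = 0.984), Ccng2 (0.983) and Ranbp9 (0.981). For Plk3 they were the cytochrome P450 gene Cyp2b10 (0.982), Ccnt1, the cyclin of an elongation factor (0.976), and the mucin gene Muc2 (0.967). Cdkn1a and Plk3 correlated with each other at 0.959, and at 0.937 after the mean of each tissue was removed. Cdkn2c and Mdm2 ran against each other, at -0.988 and at -0.966 after that step. These values describe 8 arrays in 4 groups that share tissue and temperature. A gene that differs between the groups in the same order therefore gives a high r by that alone. The doubted arrays are among the 8. On muscle replicate 2 in the cold, which carried brown fat transcripts, Cyp2b10 read 8.03, Ccnt1 10.74 and Muc2 6.01. On the other muscle arrays they read 5.17 to 5.54, 10.51 to 10.62 and 5.29 to 5.44. The part of that array in the correlations was not tested.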

How the data were processed

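Total RNA was extracted with TRIzol, amplified, labelled with biotin and hybridised to 1-colour Illumina bead arrays, per the labels' protocols. The first deposited table holds an intensity for each of 24607 probes on each array on a linear scale, per the file headers, with no background subtraction or scaling visible in the values. The deposited detection score of each probe is highest for bright probes, so 1 minus that score was taken as its detection p. The other deposited table holds the authors' own processed intensity values, background subtracted and quantile normalized as judged from the values, and served as an alternative. The summarising software and its settings are not given in the sources. No batch is recorded.

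In R 4.3.3 with limma 3.58.1, background was corrected with normexp, with negative controls inferred from the detection p-values. An offset of 16 was added and the arrays were quantile normalized, then log2 transformed. Testing was limited to the 11946 probes detected (p under 0.05) on each array of some group, and the brightest tested probe stood for its gene (9963 genes, which include probes without a gene name). Genes were named from GEO's platform annotation. A model with 4 group means was fitted to the 8 arrays (lmFit, eBayes, 4 residual degrees of freedom plus 3.07 from moderation), with Benjamini-Hochberg adjustment over all genes tested. Errors are standard errors of the log2 difference unless marked SD, and the number of arrays limits their precision. If neither array of the dimmer group detected a gene, its fold is a bound: the brighter mean against, per dim array, the lowest detected signal or the gene's own, whichever is higher. The procedure was tested on simulated data.

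The genes, the lists and the tests were chosen with earlier results of these data known. Named are all 10 genes with every probe, up to 3 genes per list and comparison that passed or else the 2 with the largest differences, and the 3 genes closest to Cdkn1a and to Plk3. The alternatives are other background, scaling, offset and filter settings, the authors' table, the mean over a gene's probes, a replicate block, the groups of a comparison alone, and leaving out arrays.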

Additional observations from a re-analysis of the deposited data

Results flagged for a closer look

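Cdkn2c and Gadd45a read lower in cold brown fat and higher in cold muscle. The Cdk inhibitor Cdkn2c had a cold effect of -1.21 in brown fat and 0.37 in muscle on the log2 scale, and every cold array of brown fat lay below, and every cold array of muscle above, the room temperature arrays of the same tissue. The stress gene Gadd45a did the same, with -0.62 in brown fat and 0.34 in muscle. The difference between the tissues was not tested for either gene. How many of all genes tested run opposite ways in this manner was not counted, so nothing is read from the pattern. Gadd45a passed the threshold in neither tissue, and its brown fat value was -0.34 without the doubted arrays. Its lowest reading, 6.98, came from the brown fat array that lacked muscle transcripts, and Gadd45a was 5.13-fold higher in muscle at room temperature. Cdkn2c did not pass in muscle either, its dimmer probe gave -0.06 there, and the value was 0.11 without the doubted arrays. The muscle array that gave the higher Cdkn2c reading carried brown fat transcripts (Ucp1 at 14.45), and the part of these in the value was not tested.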

How the results depend on the processing

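Each result was recomputed under up to 19 alternatives. In cold muscle 1 of the 8 genes passed. The count was 0 with the authors' table, with no filter on dim probes, with the replicate block, without the doubted arrays, with the mean over probes and with only the 2 muscle groups in the fit, and it ran from 0 to 2 when single arrays were left out. Cdkn1a in muscle stayed between 1.17 and 2.02 (adjusted p 0.0238 to 0.187) and lost its call in 13 of 19. With median scaling the gene that passed in muscle was Plk3 (1.57, adjusted p = 0.0416) and not Cdkn1a (1.43, adjusted p = 0.0711). The tissue comparison at room temperature had 5 calls, and 3 to 5 when single arrays were left out. Plk3 lost its call in 7 of 18 and Cdkn1a in 4 of 19, while Cdkn2c, Gadd45a and Mdm2 kept theirs in all 19. The brown fat comparison had 4 calls, 2 with median scaling and 1 to 5 when single arrays were left out, and Cdkn1a stayed between 3.08 and 3.45. Median scaling moved the median of all genes to -0.20 in muscle, -0.24 between the tissues and -0.11 in brown fat.

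Signs turned for small differences. In muscle Mdm2 was 0.0216, Cdkn2b 0.0651 and Plk5 0.0884 without the doubted arrays. When single arrays were left out, Mdm2 ran from -0.169 to 0.0217, Cdkn2b from -0.177 to 0.144 and Plk5 from -0.341 to 0.0896 in muscle, Gadd45g from -0.422 to 0.228 between the tissues and Plk2 from -0.451 to 0.0175 in brown fat. Cdkn1c between the tissues was -0.126 with median scaling. The cause was not tested.

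Over all genes, 419 passed in muscle, against 102 (68 higher, 34 lower) with median scaling, 235 with the authors' table, 241 with the block, 273 (172 higher, 101 lower) without the doubted arrays, 173 with the muscle groups alone and 45 to 703 without single arrays. Between the tissues 6594 passed, against 3446 (1284 higher, 2162 lower) with median scaling and 4176 with the strict filter. In brown fat 1656 passed, against 252 (58 higher, 194 lower) with median scaling, 1053 with the brown fat groups alone and 651 to 1769 without single arrays.

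The replicate numbers of the titles gave no clear sign of pairing the samples, and the main model treated them as unpaired. Such correlations cannot show whether brown fat and muscle came from the same mice. Deviations of samples with the same number correlated at 0.18 in brown fat and 0.07 in muscle, and between -0.13 and 0.02 across the tissues. With the replicate block, Cdkn1a in muscle had an adjusted p of 0.0682, and with the numbers of the descriptions 0.0325. With 2 arrays in a group, arrays left out leave a lone sample that is assumed to vary like the other groups.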
